A study of Homo sapiens with 6 samples.

Results

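ZNF146, ZNF260 and ZNF565 are 3 zinc finger genes that lie close together on the long arm of chromosome 19, and they are described here in RNA sequencing of HEK293 cells. ZNF146 is 1 of the 2 genes that the study targeted with CRISPR/Cas9. ZNF260 was included because its protein resembles ZNF146, and ZNF565 because it overlaps ZNF146 on the opposite strand. The 3 genes were found by their Ensembl identifiers (ENSG00000167635, ENSG00000254004 and ENSG00000196357) among the 57773 genes of the count matrix, and each was among the 22010 genes with enough counts for a test. The rule rests on targeting, likeness and position, and uses no expression value.

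HEK293 is a human embryonic kidney cell line. In every group the cells were transiently transfected with PX459, a plasmid that carries Cas9 and puromycin resistance, selected for 36 h with puromycin and grown out for 2 weeks in total. Plasmids with 4 ZNF146 guides made the group sgZNF146, those with 4 ZNF507 guides made sgZNF507, and the empty vector without a guide (EV) served as control. Each group has 2 libraries, stated to be biological duplicates. The edited cells were pools rather than clones, so a library averages cells with different alleles, and fewer cells with a transcript cannot be told apart from less transcript per cell.

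C2H2 zinc finger proteins bind DNA through strings of short finger domains, each held together by paired cysteines and histidines around a zinc ion, and neighboring fingers read neighboring bases. Many of them also carry a KRAB domain, which recruits the corepressor TRIM28 and silences the bound region. ZNF146, also called OZF for "only zinc fingers", consists almost entirely of fingers and has no KRAB domain. ZNF260 also has fingers and no KRAB domain, and its mouse counterpart was described as a transcriptional regulator in heart muscle. ZNF565 is a KRAB zinc finger protein.

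The coding sequences were compared first, because their likeness bears on the guides and on the counting of reads. In the GENCODE annotation on GRCh37, the build used by the authors, ZNF146 encodes 292 codons with 10 matches to the spacing of a C2H2 finger, and the last match ends at codon 292. ZNF260 encodes 412 codons with 13 matches, and ZNF565 encodes 499 codons with 12. The first match begins at codon 18 in ZNF146 and at codon 29 in ZNF260, but only at codon 169 in ZNF565, where a long stretch without fingers precedes it. Codons 4 to 292 of ZNF146 aligned with codons 124 to 412 of ZNF260, and 235 of 289 aligned amino acids were identical (81.3%). Against ZNF565, 167 of 289 were identical (57.8%). In the local alignment of coding bases, identity was 86.0% between ZNF146 and ZNF260 and 73.0% between ZNF146 and ZNF565. ZNF260 thus has a longer front part than ZNF146, and the rest of both proteins aligns over its whole length.

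The 4 ZNF146 target sequences are shown to place the cuts and to compare the same stretches in ZNF260. As listed, 0 of the 4 are followed by NGG, the motif (PAM) that SpCas9 needs next to its target. On the opposite strand, with 1 genomic base added on the PAM side to the 3 sequences of 19 bases, 4 of 4 are followed by NGG. The resulting 20 bases are printed 5′ to 3′ in lower case, with the 3 bases of the PAM in capitals:
guide 1, chr19:36727435-36727454, minus strand: gaaaatgctcatgctcagtgAGG
guide 2, chr19:36727932-36727951, plus strand: catcacttattgtacatgtgAGG
guide 3, chr19:36727356-36727375, plus strand: gccagcagagaatttacagtGGG
guide 4, chr19:36727736-36727755, plus strand: gagtgtggaaaaaccttcagTGG
All 4 lie in the single coding exon of ZNF146, and the predicted cuts fall in codons 32, 202, 10 and 137, in the order of the lines.

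Guides 1, 2 and 4 have counterparts with 3 or fewer mismatches in the coding sequence of ZNF260. The 20 bases of guide 2 occur in ZNF260 without a mismatch, but the next 3 bases there are AGA in place of AGG. The closest ZNF260 site to guide 1 differs by 3 bases and is also followed by AGA. The closest ZNF260 site to guide 4 that has an NGG motif differs by 3 bases. Positions count from 1 at the 5′ end, the guide's base is given first, and the changes are A4T, A5T and G7T for guide 1 and G3A, A9G and A13G for guide 4. The sites are printed for comparison with the lines above. Capitals mark the last 3 bases at guide 2 and the mismatched bases at guides 1 and 4:
ZNF260 at guide 1, chr19:37005669-37005688, plus strand: gaaTTtTctcatgctcagtgaga
ZNF260 at guide 2, chr19:37005172-37005191, minus strand: catcacttattgtacatgtgAGA
ZNF260 at guide 4, chr19:37005368-37005387, minus strand: gaAtgtggGaaaGccttcagtgg
The closest ZNF260 exon sites with NGG had 7, 8 and 9 mismatches for guides 1, 2 and 3, and the closest site to guide 3 with any motif had 5. In the exons of ZNF565, the closest sites with NGG had 8, 9, 7 and 8 mismatches for guides 1 to 4. Cutting at these sites was not measured in the count matrix, which holds no indels, and was not analysed here.

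ZNF146 and ZNF565 are arranged head to head with an overlap. ZNF146 (chromosome 19, 36705504 to 36729673, plus strand) has 5 annotated transcripts, and ZNF565 (36673178 to 36737159, minus strand) has 7. Their canonical transcripts start 441 bases apart and run in opposite directions. One ZNF565 transcript starts farther away, 8941 bases beyond the end of the ZNF146 coding sequence, and its first intron of 43425 bases contains that coding sequence. The 4 predicted cuts therefore also lie inside an intron of this 1 of 7 ZNF565 transcripts, between 8429 and 9005 bases from its exon on the upstream side. Exons of the 2 genes share 446 bases, which are 10.8% of ZNF146 exon bases and 11.9% of ZNF565 exon bases. Of the ZNF146 coding bases, 0 are overlapped by a ZNF565 exon. ZNF260 (37001589 to 37019173, minus strand) begins 271916 bases beyond the end of ZNF146, and no annotated gene in the matrix overlaps its exons.

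**Figure D1:**
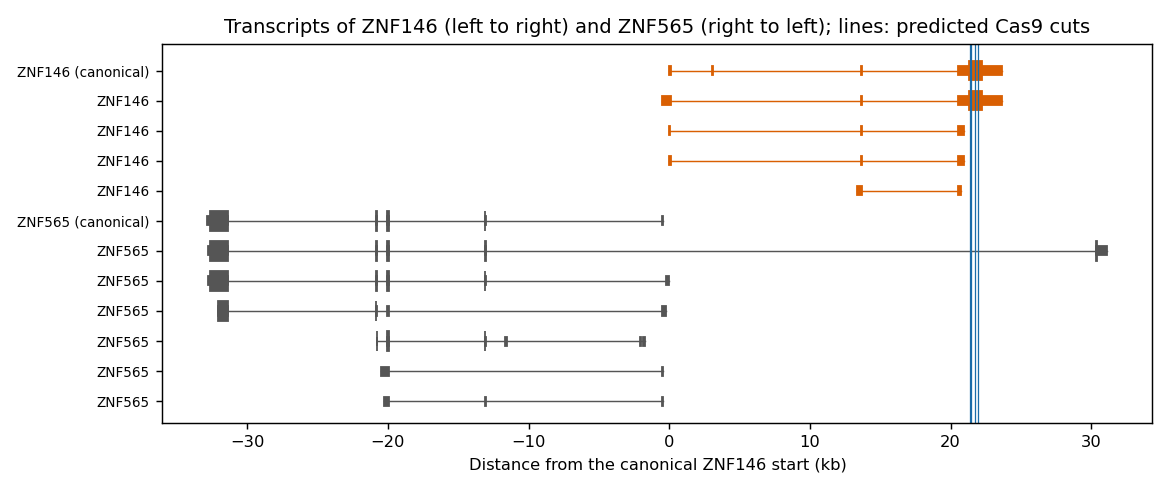
Annotated transcripts of ZNF146 and ZNF565 by distance in kb from the canonical ZNF146 start, with exons as boxes, coding parts as taller boxes and vertical lines at the 4 predicted cuts. The canonical starts lie 441 bases apart, and 1 of the 7 ZNF565 transcripts spans the cuts with an intron.

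Reads of these genes could be told apart by sequence for the most part. Of the 50-base stretches in the exons, 3947 of 3947 in ZNF146 and 3247 of 3247 in ZNF565 occurred once in the genome, as did 5154 of 5326 (96.8%) in ZNF260. The longest run of identical bases shared by the ZNF146 and ZNF260 coding sequences was 29 bases, shorter than the paired-end reads of 50 bases. The methods name a first-strand library in the mapping, but not the strand option of the counting. A check on the matrix bears on this. It took genes whose exons lie fully within exons of other genes on a single strand. The most counted overlapping gene on that strand had at least 600 counts over the 6 libraries. Of 415 such genes on the strand opposite to the covering genes, 78.3% had at least 1 count, against 35.7% of 580 on the same strand. The medians were 8 and 0 counts, and at 60 or more counts the shares were close, 21.9% and 17.9%. Whether ZNF146 reads from the 446 shared bases entered the ZNF565 count was not tested directly.

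Library totals ranged from 22724439 to 28524025 counts. Of the genes listed as HEK293 markers, VIM, NEFM, KRT8, KRT18 and PAX2 were present in all 6 libraries. Their lowest values were 1010 CPM for VIM, 66.3 for NEFM, 60.1 for KRT8, 78.3 for KRT18 and 5.25 for PAX2. NEFL, also listed, had no match among the gene symbols and was not analysed. PTPRC, ALB, CDH5 and SFTPC stayed at 0.236 CPM or less. COL1A1, listed as a fibroblast gene, was at 58.9 to 73.0 CPM, and its part in any result was not tested. The study reported both targeted proteins as essentially undetectable by western blot and found frequent indels at the guide sites in the reads. Transcript level is another measure and does not show editing. ZNF507, the other targeted gene, was called in sgZNF507 against EV. Its log2 fold change was -0.62 ± 0.07 (SE), with a Benjamini-Hochberg adjusted p of 0.00195 in the quasi-likelihood test of edgeR. All adjusted p-values below come from that test over 22010 genes. CPM are counts scaled to a common library size by edgeR's TMM method.

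ZNF146 was by far the most abundant of the 3 transcripts in every library. Per kb of exon, its level was 24.6 ± 2.08 CPM per kb (SD, n = 6), against 4.53 ± 0.28 for ZNF260 (SD, n = 6) and 1.05 ± 0.0934 for ZNF565 (SD, n = 6). The ranges of the 3 genes over the libraries, 21.3 to 27.7, 4.03 to 4.79 and 0.896 to 1.15 CPM per kb, did not overlap. Among 237 tested protein-coding genes of chromosome 19 with a ZNF or ZFP symbol, ZNF146 ranked 3, ZNF260 ranked 40 and ZNF565 ranked 164 by this level, and the median of these genes was 1.93 CPM per kb. Among all 14744 tested protein-coding genes, 89.6% were below ZNF146, 50.1% below ZNF260 and 23.6% below ZNF565. Although ZNF146 and ZNF565 start close together, ZNF565 thus reached only 3.66% to 5.01% of the ZNF146 level per kb within a library, and ZNF260 reached 16.0% to 19.5%.

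ZNF146, the targeted gene, was still well counted in sgZNF146. Its normalized count there differed from that in EV by -8.37% in the fit, a difference that did not pass the test. It was counted 2860 and 2915 times in EV, 2517 and 2583 times in sgZNF146, and 2036 and 2937 times in sgZNF507. Scaled to library size, these were 115 and 105 CPM in EV, 99.2 and 103 CPM in sgZNF146, and 88.4 and 101 CPM in sgZNF507. Both EV libraries lay above the other 4, and the single lowest library was replicate 1 of sgZNF507, where ZNF146 was not targeted. The counting intervals (exact Poisson, 95%, counting error only) of EV replicate 2 (102 to 109 CPM) and sgZNF146 replicate 2 (98.7 to 107 CPM) overlapped. To look for indels, the authors added a further aligner that rescued unmapped reads, whereas the matrix rests on the TopHat2 mapping. How many reads the ZNF146 count in sgZNF146 lost to indels or to deletions between cuts was not tested. The difference from EV may therefore not be one of transcript level alone.

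In sgZNF146 against EV, the log2 fold change of ZNF146 was -0.13 ± 0.08 (SE), with an edgeR adjusted p of 1.00. The approximate 95% interval ran from -0.29 to 0.04, which allows a level in sgZNF146 between 0.816 and 1.03 times that in EV. No gene was called in this comparison (0% of 22010, with 535 genes at an unadjusted p under 0.05 and 0 called by DESeq2). The groups of ZNF146 did not overlap, as was the case for 28.6% of all genes tested. The difference was -0.06 without EV replicate 1 and -0.19 without EV replicate 2. With 2 libraries against 2, an exact two-sided permutation test cannot give a p below 0.333.

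In sgZNF507 against EV, the ZNF146 log2 fold change was -0.21 ± 0.08 (SE), with an interval from -0.38 to -0.05 and an edgeR adjusted p of 1.00. Its unadjusted p in edgeR was 0.0162 and ranked 252 among 22010 genes. Its groups did not overlap here either (29.3% of all genes), and 0.182% of genes were called. Without sgZNF507 replicate 1, the library with the lowest level, the log2 fold change was -0.12, and without sgZNF507 replicate 2 it was -0.31. Between sgZNF507 and sgZNF146 the log2 fold change of ZNF146 was -0.09 ± 0.08 (SE; interval -0.26 to 0.08), again with an edgeR adjusted p of 1.00. Its sign turned without sgZNF507 replicate 1 (0.005), the groups overlapped (32.1% of all genes did not) and 0.173% of genes were called. The order of the group means was EV, sgZNF146 and sgZNF507, at 110 ± 6.68, 101 ± 2.47 and 94.9 ± 9.22 CPM (SD, n = 2 each). Of the 3 comparisons between these groups, 0 passed the test. Both comparisons against EV share the same EV libraries. Whether the transcript of ZNF146 changed less under its own guides than that of ZNF507 did was not tested.

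**Figure D2:**
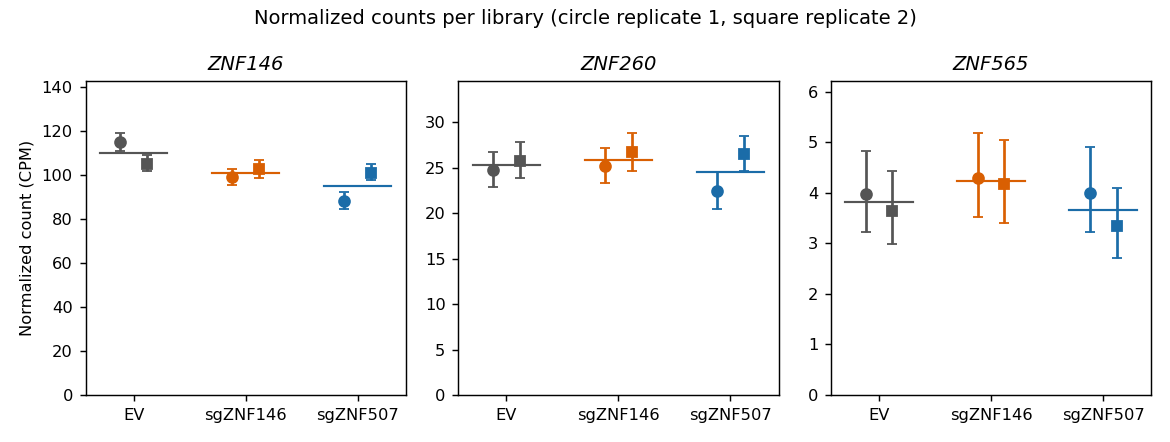
Normalized counts (CPM) of ZNF146, ZNF260 and ZNF565 in each library by group, with circles for replicate 1, squares for replicate 2, exact Poisson 95% counting intervals as bars and horizontal lines at the group means. ZNF146 lay at 105 and 115 CPM in EV and at or below 103 CPM in the other libraries, while the intervals of ZNF565 overlap throughout.

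ZNF260, the close relative, showed nearly the same level in EV and sgZNF146. It was counted 617 and 713 times in EV (24.8 and 25.8 CPM), 639 and 671 times in sgZNF146 (25.2 and 26.7 CPM), and 517 and 769 times in sgZNF507 (22.4 and 26.5 CPM). The lowest and nearly the highest library both belong to sgZNF507, so its 2 replicates spanned almost the whole range. The group means were 25.3 ± 0.711, 25.9 ± 1.05 and 24.5 ± 2.91 CPM (SD, n = 2 each) in EV, sgZNF146 and sgZNF507.

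The log2 fold change of ZNF260 was 0.04 ± 0.10 (SE) in sgZNF146 against EV, with an edgeR adjusted p of 1.00. The interval from -0.19 to 0.26 allows a level between 0.88 and 1.19 times that in EV. It was -0.04 in sgZNF507 against EV (interval -0.26 to 0.18) and -0.08 in sgZNF507 against sgZNF146 (interval -0.30 to 0.14), each with an adjusted p of 1.00. The groups overlapped in all 3 comparisons. The sign turned when 1 library was left out, to -0.008 in sgZNF146 against EV without sgZNF146 replicate 2. Without sgZNF507 replicate 1 it turned to 0.07 in sgZNF507 against EV and to 0.03 against sgZNF146. Within a library, the ZNF260 count was 21.6% and 24.5% of the ZNF146 count in EV and 25.4% to 26.2% in the other 4 libraries.

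ZNF565, the overlapping KRAB gene, was counted rarely and evenly. It had 99 and 101 counts in EV, 109 and 105 in sgZNF146, and 92 and 97 in sgZNF507. These were 3.98 and 3.65 CPM in EV, 4.29 and 4.17 CPM in sgZNF146, and 3.99 and 3.35 CPM in sgZNF507. Both sgZNF146 libraries lay above the other 4, but the counting intervals of all 6 libraries overlapped, and the widest range within a group was in sgZNF507. The group means were 3.82 ± 0.229, 4.23 ± 0.086 and 3.67 ± 0.455 CPM (SD, n = 2 each) in EV, sgZNF146 and sgZNF507.

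In sgZNF146 against EV the log2 fold change of ZNF565 was 0.15 ± 0.17 (SE; edgeR adjusted p of 1.00), and its interval of -0.23 to 0.53 allows 0.855 to 1.44 times the EV level. Its groups did not overlap in this comparison or in sgZNF507 against sgZNF146, as for 28.6% and 32.1% of all genes tested. ZNF565 had the widest interval of the 3 genes and the fewest counts. It was -0.06 in sgZNF507 against EV (interval -0.44 to 0.32) and -0.21 in sgZNF507 against sgZNF146 (interval -0.59 to 0.17), each with an adjusted p of 1.00. The sign of the former turned without EV replicate 1 (0.004) and without sgZNF507 replicate 2 (0.08). The log2 CPM values of ZNF565 and ZNF146 had a Pearson correlation of -0.12 over 6 libraries, against 0.57 for ZNF146 and ZNF260. Both values are given as descriptions. The counting intervals of ZNF565 overlapped in all 6 libraries, so its correlation cannot show whether it rises and falls with ZNF146.

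**Figure D3:**
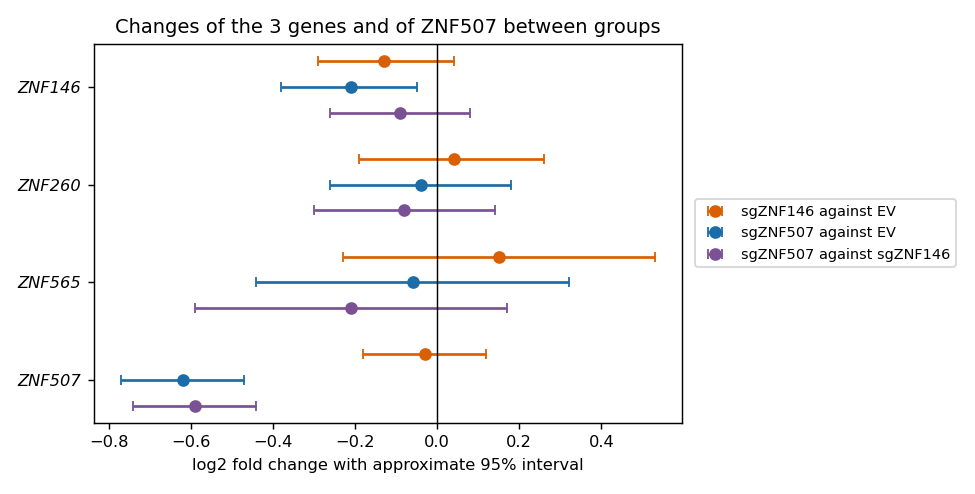
Log2 fold changes of ZNF146, ZNF260, ZNF565 and, for comparison, ZNF507 in the 3 comparisons, as points with approximate 95% intervals. The intervals of ZNF260 and ZNF565 include 0 in all comparisons, that of ZNF146 leaves it out only in sgZNF507 against EV (-0.38 to -0.05), and ZNF507 lies at -0.62 and -0.59 in the comparisons with its own guides.

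**Figure D4:**
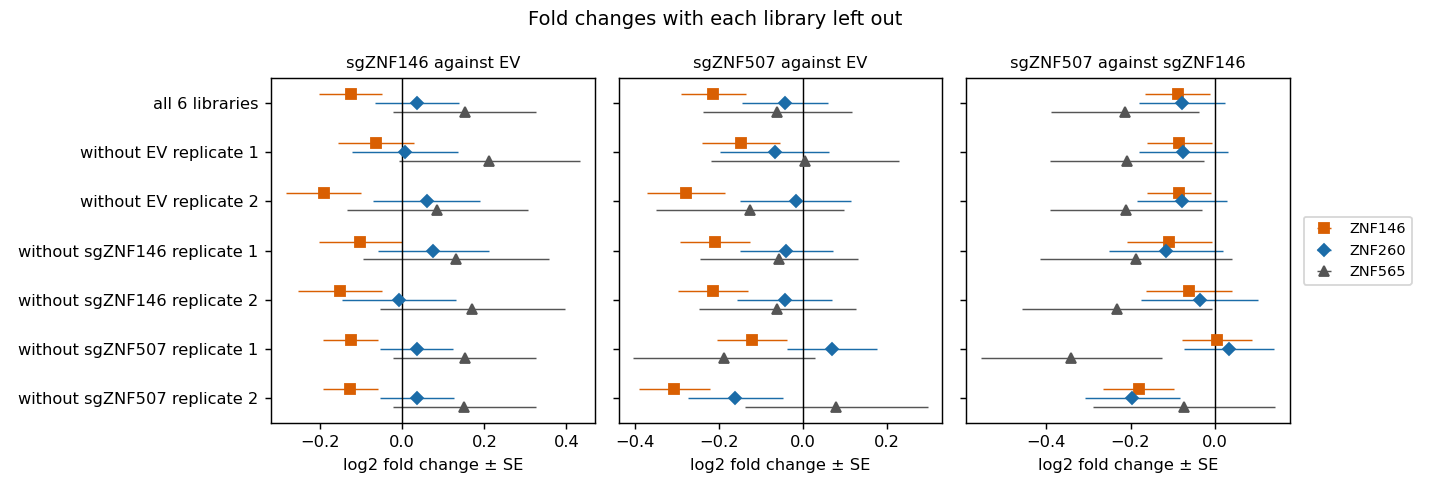
Log2 fold changes (± standard error) of the 3 genes with all 6 libraries and with each library left out in turn, in 1 panel per comparison. ZNF146 stays below 0 in both comparisons against EV, ZNF260 changes sign with single libraries in all 3 comparisons, and ZNF565 does so only in sgZNF507 against EV.

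The replicates of sgZNF507 differed most for all 3 genes. The higher replicate exceeded the lower by 14.8% for ZNF146, 18.3% for ZNF260 and 19.2% for ZNF565 in this group, against 2.91% to 8.96% in the other groups. In ZNF146 and ZNF260 replicate 2 was the higher, and in ZNF565 replicate 1 was. The counting intervals of ZNF565 overlapped there, at 3.22 to 4.9 CPM in replicate 1 and 2.72 to 4.09 CPM in replicate 2. The share of all tested genes whose replicates differed most in sgZNF507 was not computed. This pattern therefore cannot be called particular to the 3 genes. The genes whose log2 CPM followed each member most closely over the 6 libraries, among the other 14743 tested protein-coding genes, were PRMT8, NPIPB5 and HIGD1A for ZNF146 (Pearson's r of 0.994, 0.990 and 0.990), TGOLN2, ARCN1 and FAM98B for ZNF260 (0.997, 0.995 and 0.994), and HOATZ, TMIE and FAM210B for ZNF565 (0.996, 0.985 and 0.984). These are descriptions over few libraries, which share depth and replicate differences, and 480 genes reached an r over 0.9 with ZNF260, 162 with ZNF146 and 106 with ZNF565.

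The genes around the cuts were examined as a group. Of 38 other tested genes within 500 kb of ZNF146, 0 were called in any of the 3 comparisons. Of all tested genes, 0% were called in sgZNF146 against EV, 0.182% in sgZNF507 against EV and 0.173% in sgZNF507 against sgZNF146. With so few calls, 0 of 38 says little about the genes near the cuts. In sgZNF146 against EV, 0 of the 38 had an unadjusted edgeR p under 0.05, where 2.43% of all tested genes did. Their median log2 fold change was -0.04 in sgZNF146 and -0.07 in sgZNF507 against EV, where the medians of all genes tested were -0.001 and -0.003. In sgZNF507 against sgZNF146, 1 of the 38 had an unadjusted p under 0.05 (4.03% of all tested genes). The zinc finger genes ZFP14, ZFP82 and ZNF566 lie between ZNF146 and ZNF260 and were picked after their values were seen. Their log2 fold changes in sgZNF146 against EV were -0.13 ± 0.15, 0.04 ± 0.14 and -0.08 ± 0.12 (SE). The 3 largest values in sgZNF146 against EV were of scarce transcripts, -1.34 for RN7SL287P, 0.69 for ENSG00000267328 and 0.52 for ENSG00000228629. RN7SL287P, a 7SL pseudogene inside the ZNF565 span, stood at 0.178 ± 0.085 CPM in sgZNF146 against 0.464 ± 0.196 CPM in EV (SD, n = 2 each), with an edgeR adjusted p of 1.00, and its family has many similar copies, so its value is uncertain.

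**Figure D5:**
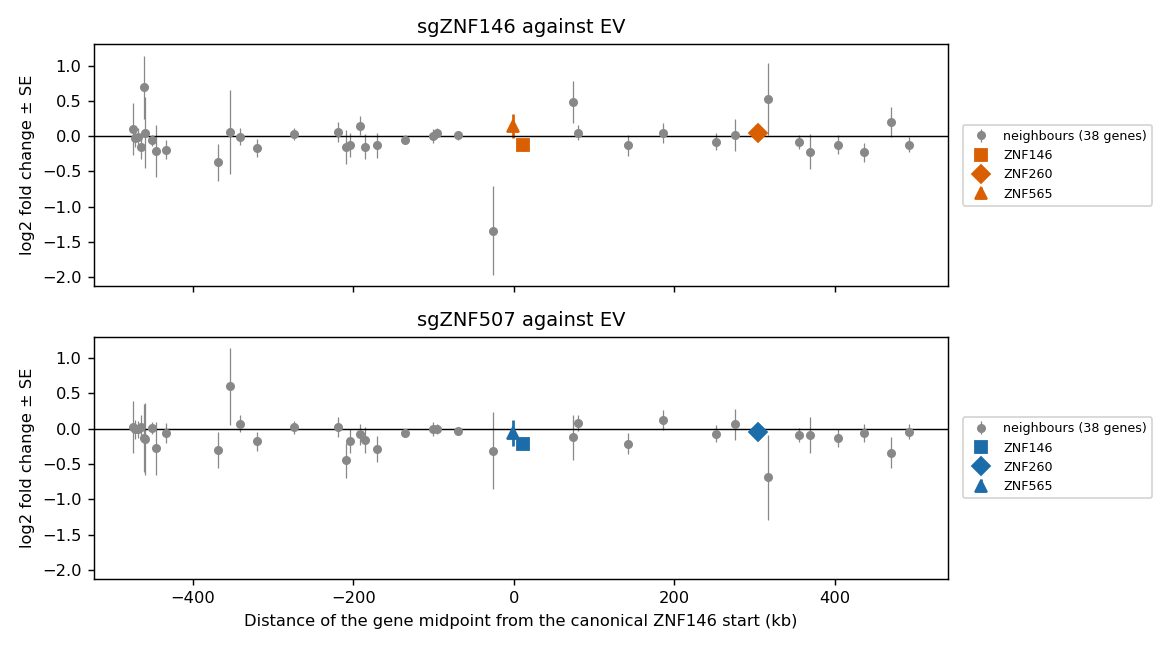
Log2 fold changes (± standard error) against EV of the 3 genes and of 38 neighbors by distance in kb from the canonical ZNF146 start, for sgZNF146 (top) and sgZNF507 (bottom). The neighbors scatter around 0 on both sides, and the widest errors belong to scarce transcripts such as RN7SL287P at -1.34.

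Genes of the route by which KRAB zinc finger proteins silence DNA did not pass the test either. TRIM28, the corepressor that KRAB domains recruit, had a log2 fold change of -0.09 ± 0.06 (SE) in sgZNF146 against EV. Its level was 936 ± 7.89 CPM in EV (SD, n = 2) and 882 ± 21.1 CPM in sgZNF146 (SD, n = 2). Whether ZNF565 acts through TRIM28 was not tested. Of TRIM28, SETDB1, ATF7IP, CBX1, CBX3, CBX5, CHD3, CHD4, HDAC1 and HDAC2, 0 of 10 were called in each comparison. The shares of all tested genes called were 0% in sgZNF146 against EV, 0.182% in sgZNF507 against EV and 0.173% in sgZNF507 against sgZNF146. In that order, 1, 0 and 2 of 10 had an unadjusted edgeR p under 0.05, against 2.43%, 3.39% and 4.03% of all genes. With so few calls, 0 of 10 says little about this route. The largest value in sgZNF146 against EV was 0.21 for CBX5, a heterochromatin protein, at 394 ± 25.2 against 342 ± 3.75 CPM (SD, n = 2 each), with an edgeR adjusted p of 1.00. The median of these 10 genes in sgZNF146 against EV was 0.00.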

How the data were processed

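RNA-seq counts of 6 libraries were analysed, with groups and replicates taken from the sample labels. The authors clipped reads with the Fastx Toolkit, removed ribosomal reads with Bowtie, mapped the rest to hg19 with TopHat2 and counted them per Ensembl gene with featureCounts. The deposited values are raw counts, neither normalized nor pooled, and PCR duplicates count as separate reads.

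Counts were filtered by filterByExpr, normalized by TMM and fitted with all 6 libraries in edgeR 4.0.16 (R 4.3.3) by glmQLFit and glmQLFTest, with Benjamini-Hochberg adjustment over 22010 genes and a threshold of 0.05. Approximate standard errors and intervals were derived from F. Other normalizations and filters, DESeq2 1.42.0, a replicate block and leaving out each library were alternatives. The fit was tested on simulated data. Symbols, exons and sequences came from GENCODE v44 on GRCh37, which matched 96.1% of identifiers. The authors name gene models of another Ensembl release in their mapping. Exon lengths, levels per kb and exon overlaps given here may therefore differ from those of the annotation behind the counts. Coding sequences were aligned with Biopython 1.88.

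The genes named were the 3 members, ZNF507, the genes most like each member in pattern, and the lists above with up to 3 of the largest values each. ZFP14, ZFP82 and ZNF566 were added after their values were seen. A further list of genes is not reported here. Members and lists were chosen with earlier results of these data known. ZNF146 indels, proteins and LINE-1 reads were not analysed here.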

Additional observations from a re-analysis of the deposited data

How the results depend on the processing

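None of the 9 log2 fold changes of ZNF146, ZNF260 and ZNF565 passed the threshold under any alternative run, and signs turned only with libraries left out. Leaving out each library moved ZNF146 between -0.19 and -0.06 in sgZNF146 against EV, between -0.31 and -0.12 in sgZNF507 against EV and between -0.18 and 0.005 in sgZNF507 against sgZNF146. ZNF260 moved between -0.008 and 0.076, between -0.161 and 0.068 and between -0.196 and 0.033, and ZNF565 between 0.085 and 0.212, between -0.188 and 0.079 (0.004 without EV replicate 1) and between -0.34 and -0.07. Where a group kept 1 library, that library was assumed to vary like the others. The number of genes called in sgZNF146 against EV was 0 in the analysis reported, 3 with the 4 libraries compared, 19 without a filter, 33 with the replicate block and 0 to 3 with a library left out. In sgZNF507 against EV the 40 calls became 101 without a filter, 121 with the block and 12 to 44 with a library left out, and in sgZNF507 against sgZNF146 the 38 became 112, 196 and 13 to 37. The cause was not tested. Replicate numbers are shared between groups, and deviations of replicate 1 from the group mean correlated across genes with r of 0.191 to 0.242. The labels do not say what a number stands for, and 2 numbers are too few to decide whether they pair the libraries. With the replicate block the adjusted p of ZNF146 was 0.862 in sgZNF146 and 0.0868 in sgZNF507 against EV. ZNF565, with 92 to 109 counts per library, had the widest intervals.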
